A study of Bos taurus with 8 samples.

Results

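bta-miR-103 and bta-miR-107 are microRNAs (miRNAs), short RNAs that guide a silencing complex to messenger RNAs and lower their output, and they form a pair of close relatives linked to insulin sensitivity. They were chosen by name from a bovine array design that holds 744 miRNAs, of which they are 2. The study profiled miRNAs in exosomes, small vesicles that cells release and that were pelleted from jugular plasma by ultracentrifugation, of Japanese Shorthorn steers that had been raised on grass and were 21 to 28 months old. Steers of the grazing group lived on pasture from the start of the trial (0 mo), and steers of the housed group stayed in a free-stall barn and received cut grass. The study takes 0 mo as the state before grazing, so a difference between groups at 0 mo comes before the feeding differed. For each group at 0, 1, 2 and 4 mo, the RNA of the group's 3 steers was pooled, tagged with a fluorescent dye and bound to the probes of 1 array, whose spots were then scanned for brightness. The 8 arrays therefore hold 1 pool per group and month, no value has a replicate, and the spread between animals is not part of any error given. The trial had 6 steers, 3 per group, so the arrays of a label at different months come from the same steers, and a fit that takes the months as its spread says nothing of how far other steers would differ.

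The arrays go by names that are in doubt. For both miRNAs and all 8 arrays, the 16 sums of probe signals matched, within 1%, the listing of array values that accompanies the study, but in the columns of the opposite feeding group at the same month. The arrays labelled housed matched columns lettered G, which the study's caption gives to grazing cattle. Those labelled grazing matched columns lettered A, which that caption does not name and which are taken here as the housed group. The arrays are therefore called labelled housed and labelled grazing, after the deposited labels, and no array was moved. Every sign given for a difference between labels turns round if the listing is the correct record, while a change from 0 mo keeps its sign and only changes its group. Of the blood-cell markers read below, picked here after their values were seen, miR-451 of red cells was lower on the arrays labelled grazing over 1, 2 and 4 mo, at a log2 difference of −0.92 (limma adjusted p = 0.0144, 0.00372 to 0.345 over 15 settings), and miR-150 of lymphocytes was higher, at 0.83 (limma adjusted p = 0.0144, 0.000867 to 0.984), or −0.01 without scaling. These signs, too, turn round under the listing. All 8 arrays lay on 1 slide and were read in 1 scan, with those labelled housed in column 1 and those labelled grazing in column 2, so the column and the label cannot be told apart.

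The mature forms of miR-103 and miR-107 differ only near their 3′ end and share their seed, the stretch near the 5′ end that pairs with targets. Both are produced from within genes of pantothenate kinases, the enzymes that open the synthesis of coenzyme A, and in mice a rise of either in liver or fat is known to impair glucose handling through loss of caveolin-1, a protein of the cell membrane that stabilises the insulin receptor. In the RefSeq annotation of the cattle assembly ARS-UCD2.0, MIR103-1 lies within the span of PANK3 on chromosome 20, MIR103-2 within PANK2 on chromosome 13, and MIR107 within PANK1 on chromosome 26. The array design, which uses the build UMD_3.1, places the longest probe of miR-103 at chr13:51742474-51742491 and at chr20:189907-189924, and that of miR-107 at chr26:11288048-11288064. The span for miR-107 holds 17 bases although its longest probe has 18, and at each of these positions the design writes the higher base first. Annotation of that build was not used, so the exon or intron at these positions is not analysed here.

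Each miRNA was read by 40 spots per array, 20 for each of its 2 probes, and 0 of these spots were saturated on any array. The probe sequences are shown because those of the pair share most of their bases. Capitals mark the run that a probe shares with the longest probe of the other miRNA, and each probe is written 5′ to 3′.
miR-103, longest probe: tcATAGCCCTGTACAATG
miR-103, shortest probe: tcATAGCCCTGTACAAT
miR-107, longest probe: gATAGCCCTGTACAATGc
miR-107, shortest probe: gATAGCCCTGTACAATG
The longest probes, of 18 bases each, share a run of 16 bases and keep 2 bases each outside it. Among the 1617 probes of the array, no other miRNA had a probe that shares a run of 10 bases with the longest probe of either. How much each miRNA binds the probes of the other was not tested, so the pair is read as close copies whose signals may be mixed.

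Both probes of miR-103 were bright: 20 of 20 spots stood well above background on all 8 arrays, and the spots varied by 3.45% to 7.16% (SD as a percentage of the mean). For the longest probe of miR-107, too, 20 of 20 spots stood well above background on all 8 arrays, with a spot variation of 3.48% to 8.87%. The shortest probe of miR-107 was dim. On the arrays labelled grazing 0, 1 and 4 mo, 1 of its 20 spots stood well above background, on those labelled housed 2 mo and grazing 2 mo 12 of 20 did, and on the remaining 3 arrays 20 of 20 did. The reading of miR-107 therefore rests mainly on its longest probe.

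As deposited, the total signal of miR-103 (arbitrary brightness units) at 0, 1, 2 and 4 mo was 338, 351, 223 and 345 where labelled housed, and 125, 149.6, 208 and 106 where labelled grazing. The total signal of miR-107 was 125, 99.1, 68.9 and 113 on the arrays labelled housed and 34.5, 33.8, 64.6 and 34.3 on those labelled grazing. Both were detected on 8 of 8 arrays. The scanner software's error estimate was 7.42% to 7.64% of the signal for miR-103 and 8.93% to 10.71% for miR-107. This estimate hardly followed the measured scatter of spots. For the longest probe of miR-103, the signal was 9.82 to 9.97 times its error, while the spots varied by 3.52% to 7.16%. For miR-103, a limit of 2 error estimates is therefore close to a fixed fold change. Before scaling, each miRNA was thus brighter on every array labelled housed than on any array labelled grazing, and the arrays themselves differed in brightness. The summed signal of detected miRNAs was 157696, 84288, 62438 and 90951 on the arrays labelled housed and 57316, 45507, 63558 and 51625 on those labelled grazing. To make arrays comparable, a signal is given as log2 after division by a single factor per array, the 90th percentile of the signals of its 744 miRNAs.

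On this log2 scale miR-103 stood at 1.63 ± 0.11, 2.08 ± 0.11, 2.13 ± 0.11 and 2.07 ± 0.11 on the arrays labelled housed at 0, 1, 2 and 4 mo, where the range after each value is the error estimate of that array. Labelled grazing it stood at 1.62 ± 0.11, 2.26 ± 0.11, 1.89 ± 0.11 and 1.63 ± 0.11. Both arrays of 0 mo and the array labelled grazing 4 mo were low, and the array labelled grazing 1 mo was high. Over the 4 months the labels overlapped: labelled housed stayed high after 0 mo, whereas labelled grazing was high at 1 mo and was back at its 0 mo level by 4 mo. In the order of levels, the widest gap between neighbours, 0.26 ± 0.15, separated these 3 low arrays from the array labelled grazing 2 mo, and no neighbours were apart by more than 2 error estimates, while the lowest and the highest array were apart by 0.64 ± 0.15.

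miR-107 stood at 0.20 ± 0.13, 0.25 ± 0.13, 0.44 ± 0.14 and 0.45 ± 0.13 on the arrays labelled housed at 0, 1, 2 and 4 mo, on the same log2 scale. Labelled grazing it stood at −0.24 ± 0.15, 0.11 ± 0.15, 0.20 ± 0.14 and 0.00 ± 0.15. The array labelled grazing 0 mo was the lowest and those labelled housed 2 mo and 4 mo were the highest, with a gap of 0.69 ± 0.20 between the ends. Of neighbours in the order, the lowest 2 arrays differed by 0.24 ± 0.22, and no neighbouring pair by more than 2 error estimates. At every month the array labelled grazing was the lower (with scaling to let-7g at 2 of 4 months), although the labels overlapped over the months, since labelled grazing 2 mo lay level with labelled housed 0 mo.

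**Figure D1:**
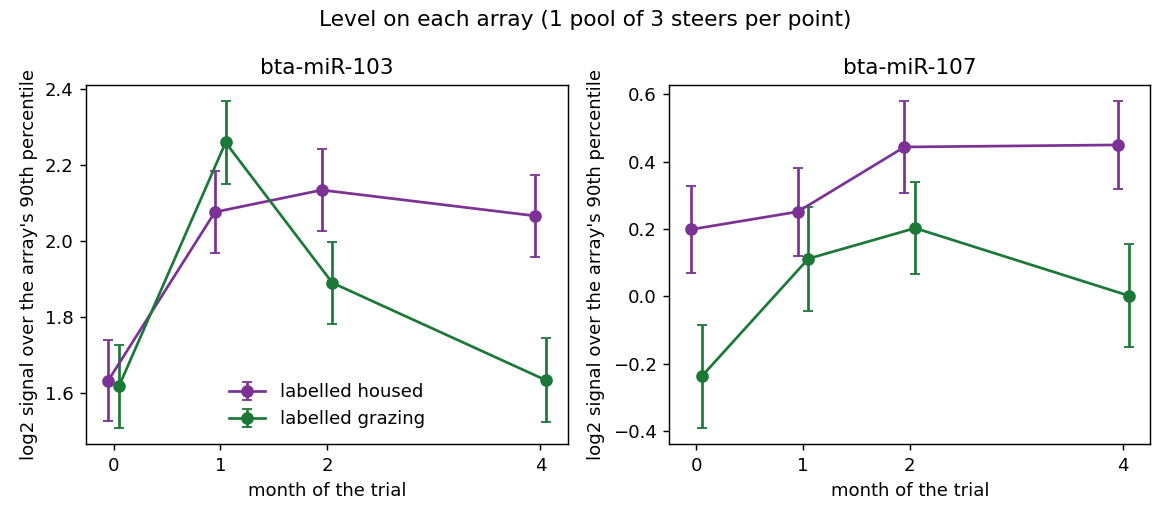
Log2 of the total signal over the 90th percentile of the array (vertical axes, which do not start at 0 and differ between panels) against month of the trial, for miR-103 (left) and miR-107 (right). Each point is 1 array of a pool of 3 steers, bars are the scanner software's error estimate, and colours are the deposited labels. miR-103 went from 1.62 to 2.26 and back to 1.63 on the arrays labelled grazing and from 1.63 to 2.07 on those labelled housed, and miR-107 was lower on the array labelled grazing at each month, which with scaling to let-7g held at 2 of 4 months.

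As a share of the summed signal of detected miRNAs, miR-103 made up 0.214%, 0.417%, 0.356% and 0.380% in month order on the arrays labelled housed, and 0.218%, 0.329%, 0.328% and 0.206% on those labelled grazing. For miR-107 the share was 0.0793%, 0.118%, 0.110% and 0.124% on the arrays labelled housed and 0.0602%, 0.0742%, 0.102% and 0.0664% on those labelled grazing. On this scale too, the 0 mo arrays and the array labelled grazing 4 mo were low for miR-103, and for miR-107 both 0 mo arrays and the arrays labelled grazing 1 and 4 mo were low.

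The change from 0 mo asks whether the pair moved during the trial within a label. For miR-103 on the arrays labelled housed, the log2 level was higher than at 0 mo by 0.44 ± 0.15 at 1 mo, 0.50 ± 0.15 at 2 mo and 0.43 ± 0.15 at 4 mo, or 1.36-, 1.42- and 1.35-fold. On the arrays labelled grazing, it was higher by 0.64 ± 0.15 at 1 mo (1.56-fold), 0.27 ± 0.15 at 2 mo and 0.02 ± 0.16 at 4 mo. Of these 6 changes, 4 were larger than 2 error estimates, namely those labelled housed at each month and the one labelled grazing at 1 mo. Such changes were common: of the 143 miRNAs detected on all 8 arrays, 45.5%, 35.7% and 35.7% changed by more than 2 error estimates in either direction at 1, 2 and 4 mo on the arrays labelled housed, and 50.3%, 48.3% and 18.9% on those labelled grazing. In size, though, the changes of miR-103 labelled housed were near the top of the order, with 12, 10 and 11 of the 143 miRNAs having a higher one at 1, 2 and 4 mo. At 1, 2 and 4 mo labelled grazing, 16, 48 and 87 miRNAs had a higher one. All changes of a label were taken from the same 0 mo array. These changes and their ranks are therefore not independent repeats.

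The changes of miR-107 were smaller against their errors at 4 of 6 arrays, all but those labelled grazing at 2 and 4 mo. On the arrays labelled housed, its log2 level was above that at 0 mo by 0.05 ± 0.18, 0.24 ± 0.19 and 0.25 ± 0.18 at these months, and on the arrays labelled grazing by 0.35 ± 0.22, 0.44 ± 0.21 and 0.24 ± 0.22. Of these 6 changes, 1 was larger than 2 error estimates, that labelled grazing at 2 mo (1.36-fold). Its longest probe alone, whose values carry the standard error over spots, gave 0.05 ± 0.03, 0.28 ± 0.03 and 0.25 ± 0.02 labelled housed and 0.36 ± 0.04, 0.43 ± 0.03 and 0.26 ± 0.03 labelled grazing. The error over spots leaves out what differs between arrays as a whole, and is given as a measure of how finely 1 array was read.

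The median change of the 143 miRNAs was 0.25 at 1 mo labelled grazing and between −0.03 and 0.09 elsewhere. What moved this median was not tested. Relative to that median, miR-103 changed by 0.42, 0.53 and 0.42 at 1, 2 and 4 mo labelled housed, and the values labelled grazing were 0.39, 0.26 and −0.08. Relative to it, miR-107 changed by 0.03, 0.28 and 0.23 labelled housed, and the values labelled grazing were 0.10, 0.43 and 0.15. On this scale, both were highest against 0 mo at 2 mo labelled housed, and labelled grazing miR-103 was highest at 1 mo and miR-107 at 2 mo. The later months of miR-103 labelled housed, and those of miR-107 under either label, differed from each other by less than 2 error estimates, and without subtracting the median miR-107 labelled housed was highest at 4 mo.

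Both miRNAs were above their own 0 mo level, a single array per label, on 6 of 6 later arrays, which was also the case for 18.9% of the 143 miRNAs. For miR-103 this count was 6 of 6 in the series table as well, 4 of 6 without scaling and 5 of 6 under each of the other settings, and for miR-107 it was 1 of 6 without scaling, 5 of 6 with scaling to let-7g and 6 of 6 under the others. With label as a block, the mean of 1, 2 and 4 mo was above 0 mo by a log2 difference of 0.38 (SE 0.18, limma adjusted p = 0.227) for miR-103 and 0.26 (SE 0.15, limma adjusted p = 0.369) for miR-107, so neither passed the threshold of 0.05. In this comparison 10 of the 143 miRNAs passed (6.99%), 1 of them higher and 9 lower at the later months. This split depends on the scaling: 1 higher and 0 lower passed with the 75th percentile and with the 90th percentile over detected miRNAs, 2 and 0 with the summed signal, 1 and 14 with let-7g, 3 and 5 with quantile normalization, and 0 and 4 without scaling. Without the 1 mo or the 2 mo arrays 0 passed (24 and 29 at an unadjusted p under 0.05 in limma), and without the 4 mo arrays 20 did. The median of all 143 was 0.09, and 13 miRNAs had a higher value than miR-103 and 24 a higher value than miR-107, but 41 and 40 with quantile normalization, where miR-103 had 0.27 and miR-107 0.28. The median itself ran from −0.25 to 0.38 over the scalings. Relative to it the values were 0.30 and 0.17, a difference that another factor per array can change only through the floor (0.29 and 0.17 with let-7g), and quantile normalization, which does not, gave 0.15 and 0.16.

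Whether the change from 0 mo differed between labels was asked with month as a factor. The mean change of miR-103 was 0.46 labelled housed and 0.31 labelled grazing, a difference (grazing minus housed) of −0.15 (SE 0.41, limma adjusted p = 0.961), and that of miR-107 was 0.18 and 0.34, a difference of 0.16 (SE 0.40, limma adjusted p = 0.961). The means depend on the scaling: labelled housed, that of miR-103 ran from −0.17 without scaling to 0.84 with the summed signal and that of miR-107 from −0.45 to 0.56 under the same settings. Neither passed, as 2 of the 143 miRNAs did (1.40%): miR-2406 and miR-2412, at 2.31 and 2.21 (limma adjusted p = 0.0392 for each), named after their values were seen. With 12 of 15 settings, among them leaving out any 1 of the later months, 0 passed in limma (4 to 16 at an unadjusted p under 0.05). Relative to the median of 0.15 over the 143 miRNAs, the differences were −0.30 for miR-103 and 0.01 for miR-107. In the same order they were −0.21 and 0.05 with quantile normalization and −0.15 and −0.01 with normexp. The sign of the unadjusted difference turned without scaling for miR-103 (0.43), and for miR-107 with the 90th percentile over the miRNAs detected on all arrays (−0.27) and with the summed signal (−0.16). The fit has 2 residual degrees of freedom and takes the scatter between months as its spread, which limma draws toward that of all the miRNAs tested. With the 75th percentile the SE was 0.63 for both miRNAs, and without scaling it was 1.05 for both.

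At each month the arrays of the labels can also be set against each other. For miR-103, labelled grazing minus labelled housed was −0.02 ± 0.15, 0.18 ± 0.15, −0.24 ± 0.15 and −0.43 ± 0.15 on the log2 scale at 0, 1, 2 and 4 mo, and for miR-107 it was −0.44 ± 0.20, −0.14 ± 0.20, −0.24 ± 0.19 and −0.45 ± 0.20. More than 2 error estimates separated the labels for miR-103 at 4 mo and for miR-107 at 0 and 4 mo. Among the 143 miRNAs the share beyond 2 error estimates in either direction was 51.7%, 37.1%, 35.7% and 55.9% at 0, 1, 2 and 4 mo. These differences depend on the scaling. With let-7g they were −0.05 for miR-103 at 4 mo and −0.22 and −0.07 for miR-107 at 0 and 4 mo, and with the 90th percentile over detected miRNAs that of miR-107 at 0 mo was −0.12, all of them smaller than above. With the 75th percentile, the summed signal and no scaling, on the other hand, the 4 mo differences were larger, at −0.99, −0.88 and −1.70 for miR-103 and −1.005, −0.90 and −1.72 for miR-107. The sign for miR-103 turned at 0 mo with the 90th percentile over detected miRNAs (0.30), at 1 mo with the summed signal (−0.34) and at 2 mo with let-7g (0.16), among others. miR-107 was lower on the array labelled grazing at all 4 months, as were 30.1% of the 143 miRNAs, but with let-7g at 2 of 4 months. Of these months, 0 mo lies before grazing began.

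Over the 6 arrays of 1, 2 and 4 mo, with month as a block, labelled grazing minus labelled housed was −0.16 (SE 0.21, limma adjusted p = 0.596) for miR-103, lower at 2 of 3 months, and −0.28 (SE 0.20, limma adjusted p = 0.332) for miR-107, lower at 3 of 3 months. Neither passed, and 16 of the 143 miRNAs did (11.2%), 9 higher and 7 lower on the arrays labelled grazing. The split was 31 higher and 2 lower with let-7g, 7 and 22 with the 90th percentile over detected miRNAs, 2 and 14 with normexp, 2 and 3 with the 75th percentile, and 0 and 3 with the summed signal and without scaling. Without the 1, 2 or 4 mo arrays 1, 2 and 0 passed in limma (23, 53 and 14 at an unadjusted p under 0.05). For the pair, both signs turned with scaling to let-7g, to 0.16 and 0.05. The median of the 143 miRNAs was −0.01 and ran from −0.85 to 0.32 over the scalings. Relative to it the differences were −0.16 for miR-103 and −0.27 for miR-107, which another factor per array can change only through the floor, and they were −0.06 and −0.24 with quantile normalization and −0.11 and −0.32 in the series table, and −0.39 and −0.20 with normexp.

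let-7g, which the study took as its reference for qRT-PCR, had a log2 level of 2.54, 2.68, 2.69 and 2.77 on the arrays labelled housed and 2.32, 2.49, 2.29 and 2.39 on those labelled grazing, each ± 0.11. Its changes from 0 mo, between −0.03 and 0.24, were all within 2 error estimates on this scale. With the 75th percentile, however, they were 0.59, 0.43 and 0.62 labelled housed and 0.44, 0.49 and −0.05 labelled grazing. With the 90th percentile over detected miRNAs they were 0.42, 0.55 and 0.57 labelled housed and between −0.10 and 0.02 labelled grazing. It was lower on the array labelled grazing at each month, except at 0 mo with the 90th percentile over detected miRNAs (0.10) and with quantile normalization (0.11).

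The ratio of miR-103 to miR-107 on 1 array does not depend on a factor that scales the whole array, although quantile normalization changes it. Its size reflects how well different probes bind and is not read, and only its differences between arrays are described. From the total signals it was 2.70, 3.54, 3.23 and 3.07 in month order on the arrays labelled housed, and 3.62, 4.43, 3.22 and 3.0999 on those labelled grazing. The lowest ratio was thus that labelled housed 0 mo and the highest that labelled grazing 1 mo, a span of 0.71 on the log2 scale, and in both labels the ratio was highest at 1 mo. At 2 and 4 mo the labels lay on each other. This pattern over months depends on the signal used: with normexp, labelled grazing minus labelled housed was −0.05, −0.11, −0.06 and −0.39 on the log2 scale at 0, 1, 2 and 4 mo, so that the labels were farthest apart at 4 mo.

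Between labels, the log2 ratio differed by 0.42 ± 0.25 and 0.32 ± 0.25 at 0 and 1 mo, and by 0.00 ± 0.25 and 0.02 ± 0.25 at 2 and 4 mo. The mean difference was 0.19 (exact permutation of labels within months, 2-sided p = 0.25), in a design where the smallest possible p is 0.125. The longest probes alone gave 0.39 ± 0.05, 0.28 ± 0.04, 0.03 ± 0.04 and −0.03 ± 0.03 with the standard error over spots. That error covers the reading of spots alone, and no second pool shows how far such a difference varies between animals. With normexp correction of the background the mean difference was −0.15 and so turned its sign. The mean of 0.19 includes 0 mo, before grazing began. Without the 0 mo arrays, left out after seeing the data, the mean difference of the total signals was 0.11.

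From 0 mo, the log2 ratio labelled housed changed by 0.39 ± 0.24, 0.26 ± 0.24 and 0.18 ± 0.24 at the later months in turn, and labelled grazing by 0.29 ± 0.27, −0.17 ± 0.26 and −0.22 ± 0.27. None of the 6 changes was larger than 2 error estimates. The mean over both labels was 0.12 (exact permutation of which month is 0 mo within each label, 2-sided p = 0.5), in a design where the smallest possible p is 0.0625. Without the 1 mo arrays this mean was 0.01, and without the 4 mo arrays 0.19. With quantile normalization, tried after seeing the data, it was −0.00653 and so turned its sign. With the longest probes alone, the changes were 0.39 ± 0.04, 0.21 ± 0.04 and 0.19 ± 0.04 labelled housed and 0.28 ± 0.05, −0.15 ± 0.05 and −0.22 ± 0.04 labelled grazing. On the arrays labelled housed the later ratios were all above that at 0 mo, and on those labelled grazing 1 of 3 was.

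The ratio of the shortest probes was 7.14, 9.39, 10.2 and 8.03 labelled housed and 11.1, 14.4, 9.13 and 10.5 labelled grazing, and it rests on the dim probe of miR-107. On the arrays labelled grazing 0, 1 and 4 mo, where the total signal of that probe was 2.73, 2.54 and 2.50 times its error, the series table has a ratio of 4.08, 4.96 and 3.44 in place of 3.62, 4.43 and 3.0999, and on the other 5 arrays it has the ratio of the total signals. The longest probe of miR-103 was 1.82 to 1.96 times as bright as the shortest over the 8 arrays. The same value for miR-107 ran from 6.62 to 9.07, but at the arrays labelled grazing 0, 1 and 4 mo it is taken against a probe near background, so whether the probes of miR-107 moved apart cannot be told.

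**Figure D2:**
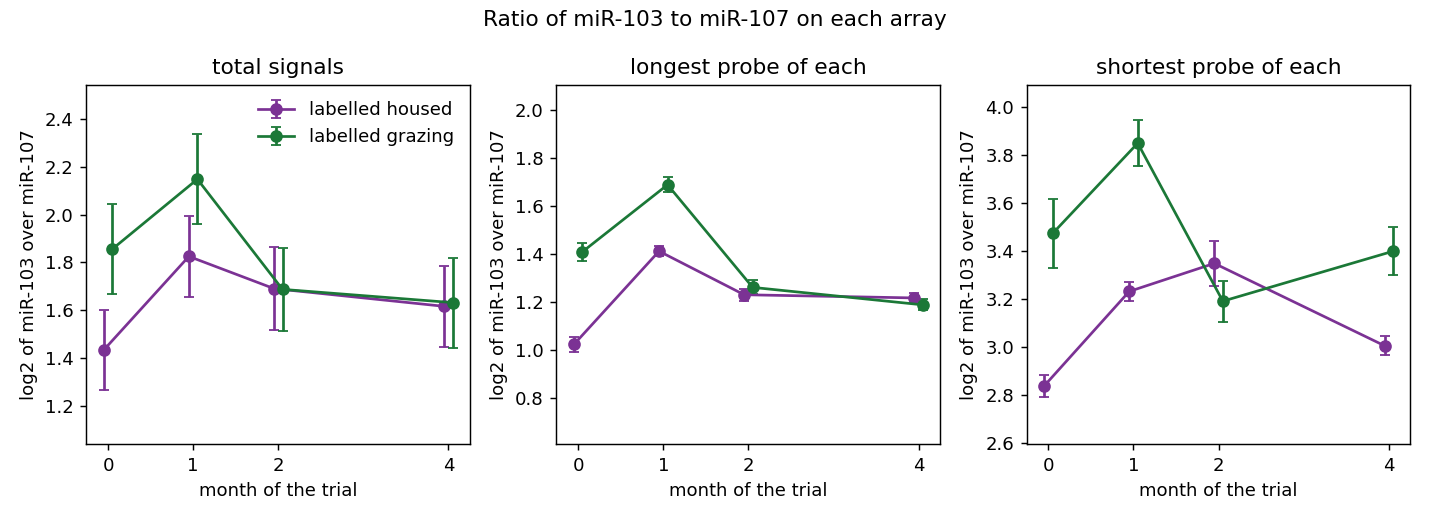
Log2 of miR-103 over miR-107 on each array (vertical axes, which cover the same span in each panel and do not start at 0) against month of the trial, from the total signals (left), the longest probe of each miRNA (middle) and the shortest probe of each (right). Bars are the scanner software's error estimate on the left and the standard error over spots elsewhere, and colours are the deposited labels. On the left, the labels are apart by 0.42 at 0 mo and 0.32 at 1 mo and together at 2 and 4 mo, whereas with normexp, not shown, they are farthest apart at 4 mo.

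Across the 8 arrays the log2 levels of miR-103 and miR-107 had a Pearson r of 0.63, and over the other settings of scaling and signal r lay between 0.34 and 0.97, highest without scaling, where the brightness of the arrays is shared. For comparison, the median r with the other 142 miRNAs was 0.35 for miR-103 and 0.38 for miR-107, and 24 and 44 of them, respectively, had a higher r than the pair had with each other. The miRNAs most like miR-103 over the 8 arrays were let-7d (r = 0.96), let-7i (0.92), miR-17-5p (0.88), miR-20a (0.88) and miR-23b-3p (0.87). Those most like miR-107 were miR-15b (0.90), miR-15a (0.86), miR-106b (0.86), miR-27a-3p (0.86) and miR-20a (0.84). The lists depend on the scaling: of the 5 nearest to miR-103, 5 were again among the nearest with the summed signal but 0 with quantile normalization, and of the 5 nearest to miR-107, 5 with the summed signal but 0 with let-7g. let-7d, named for its high r, had a mean change from 0 mo of 0.49 labelled housed and 0.36 labelled grazing, beside 0.46 and 0.31 for miR-103. The same means were 0.27 and 0.15 for let-7i, 0.23 and 0.57 for miR-17-5p, 0.18 and 0.41 for miR-20a, and 0.37 and 0.43 for miR-23b-3p.

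The other members of the miR-15/miR-107 group share a short run of bases near their 5′ end with the pair and are known for restraining the cell cycle and for targeting the survival factor BCL2. All 8 were on the array, 7 were detected on at least 1 array and 6 on all 8. miR-503-5p was detected on 0 of 8 arrays and miR-424-5p on 4. In the change from 0 mo over both labels, 0 of the 6 passed by limma (0 also at an unadjusted p under 0.05), with values from 0.01 for miR-16a to 0.21 for miR-497 and a median of 0.10, beside 0.09 for the 143 miRNAs, of which 10 passed (6.99%). All 6 members of the group were above 0, as with most settings, but 2 were with let-7g and 0 without scaling. Both miR-103 and miR-107 had higher values, 0.38 and 0.26, than these 6.

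In the difference between labels over 1, 2 and 4 mo, 6 of the 6 were lower on the arrays labelled grazing, with a median of −0.43 beside −0.01 for all 143. With let-7g, 4 of the 6 were lower and the median was −0.11, beside 0.32 for all 143. Of them 1 passed, miR-16a at −0.67 (SE 0.20, limma adjusted p = 0.0456, 0.00213 to 0.345 over 15 settings, of which it passed in 3), and 3 had an unadjusted p under 0.05. Over all 143 miRNAs 16 passed (11.2%) and 52 had an unadjusted p under 0.05, and with quantile normalization 0 of the 143 passed in limma (44 at an unadjusted p under 0.05). miR-16b had −0.54 (SE 0.20, limma adjusted p = 0.0628) and miR-195 had −0.55 (SE 0.20, limma adjusted p = 0.0611). The value of miR-103, −0.16, lay nearer to 0 than those of the 6, and the value of miR-107, −0.28, lay level with that of miR-15a, the nearest to 0 among them. In the difference between labels in the change from 0 mo, 0 of the 6 passed in limma (0 at an unadjusted p under 0.05), with a median of 0.10, which ran from −0.33 to 0.68 over the settings. Of all 143 miRNAs 2 passed (1.40%).

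Among 18 other miRNAs linked to insulin or lipid metabolism, 17 were matched by name, 13 were detected on at least 1 array and 8 on all 8. miR-33a, which lies in the gene of the sterol regulator SREBF2 and lowers cholesterol export, was detected on 3 of 8 arrays, and miR-375, a miRNA of the pancreatic islet, on 4. miR-143 and miR-33b were detected on 0 of 8. In the change from 0 mo over both labels, 0 of the 8 passed by limma (1 at an unadjusted p under 0.05), beside 10 of all 143 (6.99%). Without the 4 mo arrays 1 of the 8 and 20 of all 143 passed. With all arrays 7 of the 8 were above 0 (1 without scaling), and the median was 0.21, beside 0.09 for all 143. The highest value was that of miR-30d, 0.54 (SE 0.23, limma adjusted p = 0.168), and the lowest that of miR-29a, known for dampening insulin signalling, at −0.14 (SE 0.19, limma adjusted p = 0.639). let-7a-5p, of a family known to act on the insulin receptor, had 0.24 (SE 0.15, limma adjusted p = 0.419).

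Between labels at 1, 2 and 4 mo, 1 of these 8 passed: miR-144, which is also a miRNA of red cells, was lower on the arrays labelled grazing by a log2 difference of −1.38 (SE 0.22, limma adjusted p = 0.00108, at most 0.345 over 15 settings, of which it passed in 11). That is a share close to the 16 of 143 over all miRNAs (11.2%). The median of the 8 was −0.16, which is also the value of miR-103, and 5 of them were lower and 3 higher. With let-7g the median was 0.17, with 2 lower and 6 higher, and without scaling 8 were lower. In the difference between labels in the change from 0 mo, 0 of the 8 passed (1 at an unadjusted p under 0.05), with values from −1.10 for miR-144 to 0.66 for miR-29b. Of all 143 miRNAs 2 passed (1.40%).

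**Figure D3:**
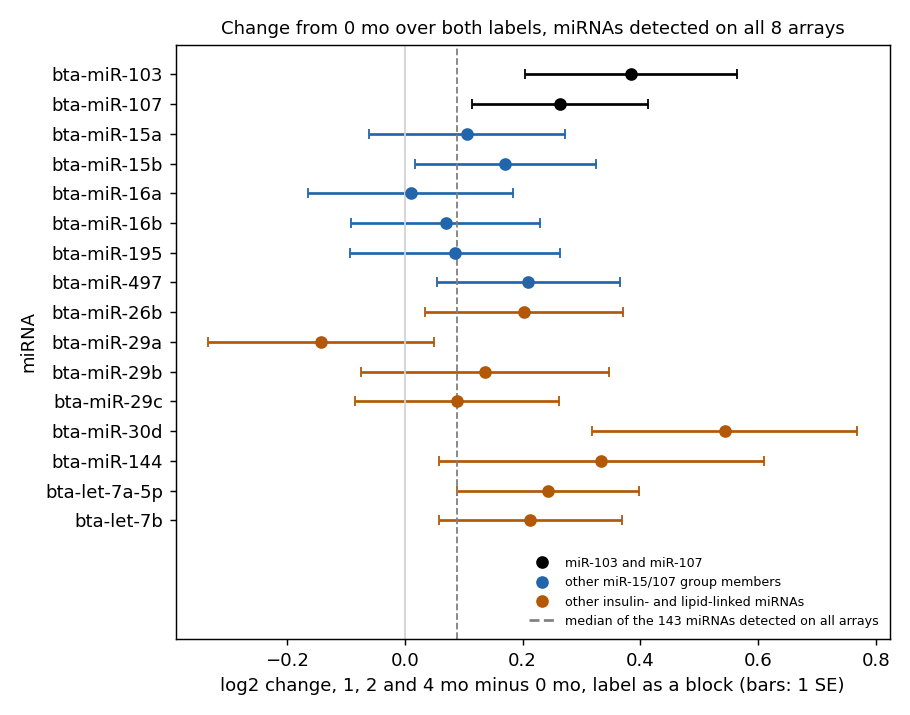
Log2 change of the mean of 1, 2 and 4 mo from 0 mo with label as a block (horizontal axis), for miR-103, miR-107 and the members of the lists of the miR-15/miR-107 group and of insulin- and lipid-linked miRNAs that were detected on all 8 arrays. Points are limma estimates from 8 arrays, bars are 1 SE, and the broken line is the median of 143 miRNAs, at 0.09. miR-103 and miR-107 are at 0.38 and 0.26, to the right of that line, and none of the miRNAs shown passed the threshold. Without scaling the value of miR-107 is −0.08.

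Exosomes of plasma carry RNA of blood cells and vessels, and the lists of their miRNAs give the setting in which the pair was read. Of 4 red-cell miRNAs, all were detected on 8 of 8 arrays, and miR-451 was the most abundant. Their summed share of the detected signal was 1.89%, 3.57%, 3.34% and 4.45% in month order on the arrays labelled housed, and 1.77%, 1.94%, 1.49% and 1.64% on those labelled grazing. Like the level of miR-103, this share was higher at each later month labelled housed than at 0 mo, and its part in the changes of the pair was not tested.

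Of 3 platelet and myeloid miRNAs, 2 were detected on every array, miR-142-3p was detected on none, and miR-223 was the most abundant except on the array labelled housed 0 mo, where miR-142-5p was. Their summed share was 2.24%, 3.26%, 2.24% and 2.54% labelled housed and 1.71%, 3.03%, 4.44% and 1.93% labelled grazing, so that it peaked at 2 mo labelled grazing, as miR-107 did. Of 2 endothelial miRNAs, both were detected on every array with miR-126-3p the most abundant, and their summed share was 4.09%, 6.17%, 4.45% and 5.82% labelled housed and 2.64%, 3.00%, 2.87% and 3.01% labelled grazing. The endothelial share was lower on the array labelled grazing at each month, as were the red-cell share and miR-107. Labelled housed, the endothelial share was higher at each later month than at 0 mo, as was the red-cell share. On the log2 scale used for the pair, the summed endothelial level labelled housed was 5.89, 5.97, 5.78 and 6.01 in month order. At 2 mo it was thus below 0 mo, whereas the red-cell level, at 4.77, 5.18, 5.36 and 5.62, was above it at each later month. The part of these cell types in the levels of the pair was not tested.

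The 3 lymphocyte miRNAs were detected on every array, with a summed share of 0.162%, 0.155%, 0.119% and 0.146% labelled housed and 0.143%, 0.156%, 0.161% and 0.144% labelled grazing, and miR-150 or miR-342 was the most abundant. miR-122, the defining miRNA of liver cells, was detected on 5 of 8 arrays, with a highest total signal of 11.8, or a share of at most 0.0121%. Of 7 muscle miRNAs, miR-133b was detected on 2 of 8 arrays with a highest signal of 6.51, and the other 6 on 0: miR-499, miR-208b, miR-208a, miR-206, miR-1 and miR-133a. The defining miRNA of the liver, a tissue in which the pair acts on insulin sensitivity, was thus near the limit of detection in these exosomes.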

How the data were processed

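Plasma exosomal RNA of 3 steers per feeding group and month was pooled and hybridized to 8 custom Agilent arrays. The authors read the scans in Feature Extraction (Agilent, version 10.7.3.1). What they deposited for each array is background-subtracted intensity, before any scaling between arrays. Their deposited series table, in which the authors give a linear ratio of signal to 1 factor per array, served as an alternative (730 miRNAs matched by name; 8 columns used, 0 left out). The set of values behind its 90 percentile stays unknown.

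Groups were taken from the deposited labels. Values are log2 of total signal over the array's 90th percentile among 744 miRNAs. Undetected values, and 104 detected values below it, were set to a floor of 0.114 before the log. The floor touched 5 of the 143 miRNAs detected on all arrays but no value of miR-103 or miR-107. The error of a log2 value is the software's error estimate over the signal, converted to log2 units, and errors of differences are root sums of squares. Arrays had no repeats, which limits precision. Fits used limma 3.58.1 in R 4.3.3 (lmFit and eBayes) for the 143 miRNAs that were detected on every array, with Benjamini-Hochberg adjustment at 0.05, and were tested on simulated data. Other values were computed with Python 3.11.15, numpy 2.4.6 and pandas 2.3.3. Outlier spots were left out where spots were averaged, and probe sequences came from the scanner output. Mature sequences were not used here, so grouping by seed was not run.

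The miRNAs named are the pair, the other members of the miR-15/107 group, let-7g, miRNAs linked in the literature to insulin or lipid metabolism, the 5 miRNAs with the highest r for each member, and lists of blood cell, endothelial, liver and muscle miRNAs. The members and lists were chosen with earlier results of these data known. The alternatives comprised 6 further scalings, mean spot signals, normexp background correction (offset 50), the series table, single probes, other rules for the fit, and leaving out each later month. Leaving the 0 mo arrays out of the ratio between labels, and quantile normalization of the ratio, were chosen after seeing the data.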

Additional observations from a re-analysis of the deposited data

Results flagged for a closer look

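The log2 level of miR-103 on the array labelled housed 0 mo, 1.63, stood far below the other 3 arrays of its label, at 2.07 to 2.13: the gap to the nearest was 0.86 of the whole range of the 4 arrays. Of 10 such sets of 4 arrays compared (the log2 level and share of miR-103 and miR-107 and the log2 ratio, each by label), 1 stood apart in this way, and chance does so in about 1 in 20 sets. It depends on the scaling: the share of the range was 0.57 with let-7g and 0.63 with normexp, and without scaling this array was not the lowest. The 4 arrays are 4 months and not replicates.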

How the results depend on the processing

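Each result was computed again under the alternatives. Of 281 such values 26 changed sign, among them values of miR-103 between labels at single months. Of the counts of passing miRNAs, 30 became smaller and 5 larger by over 1.5 times. The cause was not tested.

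The mean change of miR-103 labelled housed was 0.83 with the 75th percentile, 0.79 with the 90th percentile over miRNAs detected on all arrays, 0.84 with the summed signal, 0.28 with let-7g, 0.27 with normexp and, with its sign turned, −0.17 without scaling. Labelled grazing it was 0.53 with the 75th percentile, 0.19 with quantile normalization, 0.14 without the 1 mo arrays and 0.46 without the 4 mo arrays. The mean change of miR-107 labelled housed was 0.55, 0.51 and 0.56 under the first 3 of these scalings, 0.00265 with let-7g and, with its sign turned, −0.45 without scaling, and labelled grazing it was 0.56 with the 75th percentile and 0.20 with normexp.

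Neither miRNA passed any fit under 15 settings, with limma adjusted p between 0.547 and 0.999 (miR-103) and 0.707 and 0.999 (miR-107) for labels in the change from 0 mo, 0.148 and 0.948 and 0.177 and 0.946 for the change itself, and 0.137 and 0.922 and 0.119 and 0.774 for labels at the later months. The sign of labels in the change turned without scaling for miR-103 (0.43) and with the 90th percentile over detected miRNAs (−0.27) and the summed signal (−0.16) for miR-107. The change of miR-107 turned without scaling (−0.0804), and labels at the later months turned with let-7g (0.16 and 0.0496).

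Labels in the change from 0 mo had 2 passing miRNAs, which became 14 with those detected on at least 1 array and 0 with the 75th percentile, 0 with the 90th over detected miRNAs, 0 with the summed signal, 0 with let-7g, 0 with quantile normalization, 0 without scaling, 0 with mean spot signals, 0 with normexp, 0 in the series table, and 0, 0 and 0 without 1, 2 or 4 mo. At an unadjusted p under 0.05 in limma these 0 counts had 4 to 16.

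The change from 0 mo had 10, which became 1 (75th percentile), 1 (90th over detected), 2 (summed signal), 4 (no scaling), 0 (series table, 36 unadjusted), 3 (at least 1 array), and 0, 0 and 20 without 1, 2 or 4 mo. Labels at the later months had 16, which became 5 (75th percentile), 29 (90th over detected), 3 (summed signal), 33 (let-7g), 0 (quantile, 44 unadjusted), 3 (no scaling), 8 (mean spot signals), 8 (series table), 1 (at least 1 array), 32 (mean-variance trend), and 1, 2 and 0 without 1, 2 or 4 mo.

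The difference in ratio between labels was −0.15 (exact p = 0.125) with normexp, its sign turned. It was 0.31 in the series table and 0.37 with the shortest probes alone. Without the 0 mo arrays, an alternative chosen after seeing the data, it was 0.11. With quantile normalization, chosen likewise, it was 0.25, and the mean change of the ratio from 0 mo was −0.00653, its sign turned. That change was 0.01 without the 1 mo arrays and 0.19 without the 4 mo arrays.

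With 1 pool per label and month, the spread between steers, the place on the slide and the feeding cannot be told apart. The error estimates cover the reading of an array alone, and for miR-103 they were close to a fixed share of the signal. The fits had 2 to 5 residual degrees of freedom, and 1 to 3 without a month, besides the spread that limma pools over miRNAs. The months of a label share the same steers. The probes of the pair share most of their bases, and the labels and the study's listing name the groups the opposite way.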
